A study of Mus musculus with 8 samples.

Results

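A set of 9 genes of protein folding in the endoplasmic reticulum (ER) and of the unfolded protein response were followed in whole mouse eyes: the transcription factor Xbp1, the chaperones Hspa5, Hsp90b1 and Calr, the disulfide isomerase Pdia4, the co-chaperones Dnajb9 and Sdf2l1, the degradation factor Herpud1 and the retrieval receptor Kdelr3. Every probe set whose platform gene symbol was one of these 9 names was taken, which gave 18 of the 22626 probe sets that are not controls, and 9 of the 12393 genes with a probe set of their own. No member probe set carried several symbols. The arrays held total RNA from KPAW eyes at 1 month, wild-type eyes at 1 month, KPAW eyes at 5 days and wild-type eyes at 5 days, and each of these 4 groups had 2 arrays, numbered I and II. The sources used here name no allele or transgene for KPAW and no cell type in which it acts. The strain is given as C57Bl6 for the 5-day wild type alone. The labels do not say that the arrays of a group come from separate animals or from pools, so each p-value measures only the spread between these arrays.

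Secreted and membrane proteins are folded in the ER with the help of lumenal chaperones and disulfide isomerases. When unfolded protein builds up there, the sensors encoded by Ern1, Atf6 and Eif2ak3 start the unfolded protein response, in which spliced Xbp1 and cleaved Atf6 switch on chaperone, degradation and transport genes. Chaperones that leave with the cargo are returned from the Golgi by the KDEL receptors. In the eye the pathway serves cells with a heavy secretory load, such as collagen-making fibroblasts and keratocytes, mucous cells of the conjunctiva, and photoreceptors, which fold rhodopsin in large amounts.

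The promoters of 5 of the 9 genes are shown because they hold matches to the patterns of response elements through which the pathway is known to act. Binding or function at these matches was not tested. The sequences are the 250 bases before the RefSeq start site (build GRCm38.p6), written 5′ to 3′ on the gene's strand, and all 9 genes were matched by symbol. Capitals mark matches, on either strand, to the ER stress response element (ERSE), which is CCAAT and CCACG with 9 bases of any kind between them, to ERSE-II, which is ATTGG and CCACG with 1 base between them, and to the core TGACGTG of the unfolded protein response element (UPRE); a match on the opposite strand appears as its reverse complement.
Hspa5 promoter, chr2:34771840-34772089, plus strand: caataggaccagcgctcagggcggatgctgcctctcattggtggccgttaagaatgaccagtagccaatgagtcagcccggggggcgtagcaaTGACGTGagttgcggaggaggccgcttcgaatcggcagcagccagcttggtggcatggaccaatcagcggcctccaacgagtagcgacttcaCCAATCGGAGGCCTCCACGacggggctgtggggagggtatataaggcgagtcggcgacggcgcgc
Hsp90b1 promoter, chr10:86705445-86705694, minus strand: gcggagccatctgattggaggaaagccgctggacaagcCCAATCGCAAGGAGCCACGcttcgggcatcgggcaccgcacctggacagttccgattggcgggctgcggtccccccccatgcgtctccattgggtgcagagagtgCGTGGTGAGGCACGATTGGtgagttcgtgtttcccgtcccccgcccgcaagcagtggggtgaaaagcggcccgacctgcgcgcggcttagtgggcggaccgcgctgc
Calr promoter, chr8:84846932-84847181, minus strand: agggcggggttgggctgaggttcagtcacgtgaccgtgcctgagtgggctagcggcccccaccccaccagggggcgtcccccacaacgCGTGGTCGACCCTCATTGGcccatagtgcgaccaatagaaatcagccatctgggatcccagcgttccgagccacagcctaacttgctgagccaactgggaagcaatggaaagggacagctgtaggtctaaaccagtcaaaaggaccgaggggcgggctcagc
Herpud1 promoter, chr8:94386179-94386428, plus strand: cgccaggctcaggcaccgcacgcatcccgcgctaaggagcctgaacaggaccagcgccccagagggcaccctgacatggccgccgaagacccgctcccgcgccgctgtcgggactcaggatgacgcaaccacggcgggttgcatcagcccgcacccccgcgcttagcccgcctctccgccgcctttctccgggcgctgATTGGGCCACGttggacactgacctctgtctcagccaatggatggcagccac
Kdelr3 promoter, chr15:79516158-79516407, plus strand: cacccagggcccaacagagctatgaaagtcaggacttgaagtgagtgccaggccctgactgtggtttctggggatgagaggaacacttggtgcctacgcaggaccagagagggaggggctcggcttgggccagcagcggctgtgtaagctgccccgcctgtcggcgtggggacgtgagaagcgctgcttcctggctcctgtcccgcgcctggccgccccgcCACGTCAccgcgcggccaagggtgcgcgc
The ERSE stood in the promoters of Hspa5, Hsp90b1 and Calr, 3 of the 9 members, against 0.119% of all 32851 promoters in a window of 250 bases before to 50 after the start. Hsp90b1 held 2 copies, from -212 to -194 on its own strand and from -107 to -89 on the opposite strand, relative to the start site. In Hspa5 it lay from -65 to -47, and in Calr from -162 to -144 on the opposite strand. ERSE-II matched in Herpud1 from -52 to -42, against 0.0365% of all promoters. The UPRE core matched in Hspa5, from -157 to -151, and in Kdelr3, from -29 to -23 on the opposite strand, against 2.01% of all promoters. These matches did not overlap each other. No match to the 3 patterns was found in the windows of Xbp1, Pdia4, Dnajb9 and Sdf2l1, which says only that these letters are not there. Of 126 other genes of the pathway lists below that have a promoter in the table, 7 held the ERSE (Canx, Creld2, Derl3, Dnajc3, Ero1b, Pdia6 and Syvn1), 1 held ERSE-II (Dnajb11) and 10 held the UPRE core.

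**Figure D1:**
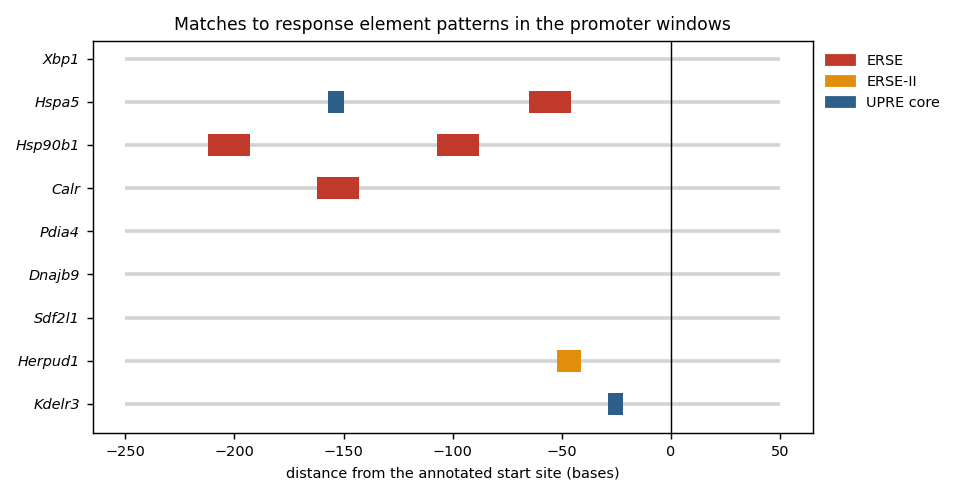
Positions of the 3 response element patterns in the promoter windows of the 9 genes; the x axis is the distance in bases from the annotated start site, each grey line is a window, and coloured blocks are matches. Hsp90b1 has 2 ERSE matches, Hspa5 and Calr 1 each, Herpud1 an ERSE-II, and Hspa5 and Kdelr3 a UPRE core.

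Signals are the deposited intensities after each array was scaled to a common trimmed mean, in arbitrary units, and they compare arrays within a probe set but not 1 gene with another. A log2 fold change is a difference of log2(scaled signal + 0.0211), which understates the change of low probe sets such as those of Kdelr3 and Sdf2l1. A probe set was called at an adjusted p under 0.05 in limma, Benjamini-Hochberg over the 15838 probe sets kept after a filter on low mean signal. Of the 18 member probe sets 17 were kept; the one left out, a second probe set of Pdia4, lay between 0.0213 and 0.0402 in all 8 arrays. Where a gene has several probe sets, the one with the highest mean signal stands for it.

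One array stood apart. In the KPAW I eye at 1 month the 8 measured rod photoreceptor markers summed to 0.809, against 32.7 in KPAW II and 29.3 and 36.0 in the wild-type eyes, and the rod transducin gene Gnat1 stood at 0.0478 there, against 7.18 in KPAW II and 6.0 and 7.09 in wild type. Lens and pigment epithelium markers were present in all arrays: lens crystallin and fiber genes summed to between 37.8 and 55.8 and pigment epithelium genes to between 4.45 and 10.6. Some corneal epithelium markers were also low in KPAW I at 1 month. Krt12 read 0.391 there, against 5.13 in KPAW II and 6.77 and 7.82 in wild type. Slurp1 read 0.130 there, against 0.964 in KPAW II and 2.01 and 2.20 in wild type. Krt5 was not low, at 4.43 against 4.19 in KPAW II and 4.62 and 4.55 in wild type. Log2 differences between KPAW and wild type at 1 month are therefore given with and without KPAW I for the 9 genes and for the pathway genes named. The sex-linked transcripts also divided the arrays, with Xist between 2.71 and 3.48 in KPAW II and both wild-type arrays at 5 days and at most 0.115 in the other 5, on the deposited scale. Actin 3′ to 5′ ratios ranged from 1.27 to 1.86.

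At 1 month the representative probe sets of all 9 genes were higher in KPAW than in wild-type eyes on average, but no member passed the test. The median log2 fold change of the 9 genes was 0.41, against -0.0026 for all 9492 genes kept, and single genes ranged from 0.05 for Hsp90b1 to 0.98 for Kdelr3. For 7 of the 9 genes neither wild-type array reached the lower KPAW array, against 18.1% of all genes. Hsp90b1 and Herpud1 overlapped, and no gene had both KPAW arrays below, against 18.6% of all genes. The members were chosen with earlier results of these data known, so these comparisons with all genes are descriptions. The small difference of Hsp90b1 turned to -0.0074 without KPAW II. The test called 0 of the 17 member probe sets, where 4 of all 15838 were called, 0.0253%. At an unadjusted p under 0.05 the members counted 2 genes, Kdelr3 and Xbp1, against 6.93% of all probe sets.

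The separation count was lower without scaling between arrays, and the differences were larger in 1 eye. With median scaling 7 of the 9 genes separated, against 22.1% of all genes, and with quantile normalisation 6, against 18.8%. On the signals as deposited 2 of the 9 genes separated, Hspa5 and Kdelr3, against 3.21% of all genes; these alternatives for the separation count were chosen after seeing the data. Against the wild-type mean the median member stood 0.58 log2 units higher in KPAW I and 0.24 higher in KPAW II, against an all-gene median of 0.02 for KPAW I and -0.0038 for KPAW II. Without KPAW I, 8 of the 9 genes lay above both wild-type arrays, all but Herpud1, against 29.5% of all genes.

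**Figure D2:**
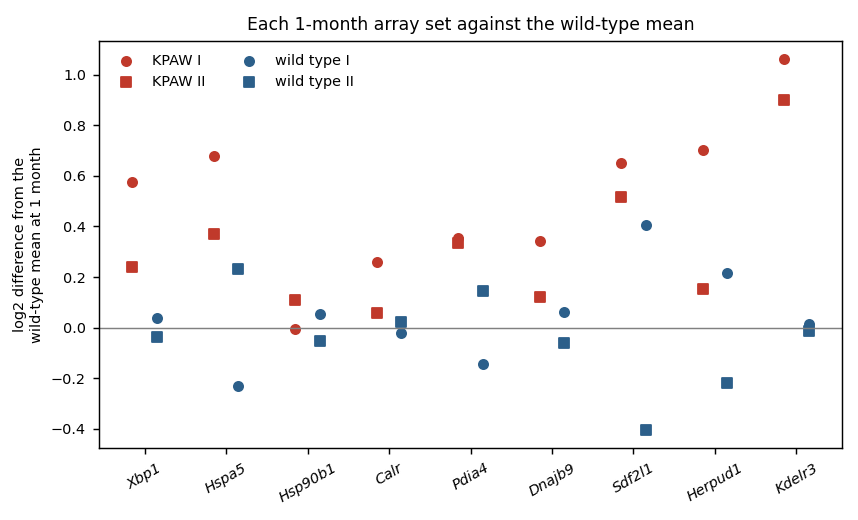
Log2 difference of each 1-month array from the mean of the 2 wild-type arrays for the representative probe sets of the 9 genes; red marks are KPAW and blue marks wild type, circles array I and squares array II. KPAW I lies above KPAW II in 8 genes, Hsp90b1 being the exception.

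Markers of several other cell types moved with KPAW at 1 month. Goblet and mucous cell markers summed to 7.28 and 2.57 in KPAW eyes, against 1.11 and 0.736 in wild-type eyes. Of that list's 9 markers, Bpifa1 was at the lowest listed value in all but 1 array, and Tff2 and Clca1 stayed below 0.06 on the deposited scale. Cornified and surface epithelium markers, 11 of 11 on the array, summed to 36.7 and 17.1 in KPAW eyes, against 2.14 and 2.63 in wild-type eyes. Fibroblast and keratocyte markers, 9 of 9, summed to 14.9 and 11.4 in KPAW eyes, against 8.19 and 7.8 in wild-type eyes. Of these 9 genes 6 were apart upward, against 18.1% of all genes. Thy1 was apart downward, against 18.6%, and Kera and Pdgfra overlapped. Macrophage markers, 10 of 10, summed to 2.95 and 2.28 in KPAW eyes, against 1.70 and 1.54 in wild-type eyes. Plasma cell markers, 7 of 9 on the array, did not separate the groups, at 1.59 and 1.37 in KPAW eyes against 1.65 and 1.45 in wild-type eyes. Lacrimal and Harderian gland markers, 8 of 9 on the array, summed to 2.42 and 2.36 in KPAW eyes, against 3.68 and 3.61 in wild-type eyes. Most of that sum was Aqp5, at 1.90 and 1.92 in KPAW eyes against 3.29 and 3.16 in wild-type eyes. Oit1 was higher, at 0.255 and 0.121 in KPAW eyes against 0.0874 and 0.108 in wild-type eyes, and Lcn3 and Dmbt1 were at or near the lowest value. Corneal epithelium markers, 7 of 7, summed to 12.9 and 18.3 in KPAW eyes, against 20.03 and 21.5 in wild-type eyes. Of the 7 genes 5 were apart downward, against 18.6% of all genes, and 1 upward, against 18.1%. Of 8 lens fiber genes on the array all were higher in KPAW on average and 5 were apart upward, against 18.1% of all genes. The lens genes summed to 55.8 and 51.8 in KPAW eyes, against 39.1 and 50.4 in wild-type eyes. The part of these cells in the member values was not tested. In RNA of a whole eye, more cells of a type and more RNA per cell cannot be told apart.

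Xbp1 encodes the transcription factor that the sensor Ern1 activates by splicing its mRNA; the splice form was not analysed here. Its representative probe set read 1.62 and 1.28 in KPAW eyes at 1 month, against 1.11 and 1.05 in wild-type eyes. At 5 days it read 1.06 and 0.902 in KPAW eyes, against 0.929 and 0.894 in wild-type eyes. Both 1-month KPAW arrays were thus above the other 6, and the 3 other groups overlapped each neighbour in the order of their means. The fold change at 1 month was 0.41 (SE 0.15, 95% interval 0.05 to 0.76, adjusted p = 0.675), and without KPAW I it was 0.24. The 3 dimmer Xbp1 probe sets did not repeat the separation. The brightest of them read 0.410 and 0.514 in KPAW eyes at 1 month, against 0.469 and 0.483 in wild-type eyes, and the other two overlapped too.

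Hspa5, the main ER chaperone of the Hsp70 class, which also holds the stress sensors inactive, read 2.01 and 1.62 in KPAW eyes at 1 month, against 1.06 and 1.47 in wild-type eyes. The 5-day arrays read 2.15 and 1.55 in KPAW eyes, against 1.70 and 1.29 in wild-type eyes. The KPAW arrays lay above the wild-type arrays at 1 month and overlapped them at 5 days, and each group overlapped the next in the order of means. The difference at 1 month was 0.52 (SE 0.24, 95% interval -0.02 to 1.07, adjusted p = 0.675), and 0.37 without KPAW I. The dimmer probe set of Hspa5 gave 0.34 (SE 0.17, adjusted p = 0.675) at 1 month with the arrays again separated. It read 0.542 and 0.414 in KPAW eyes, against 0.333 and 0.408 in wild-type eyes, so KPAW II and wild type II were nearly level. This dimmer probe set was also apart upward at 5 days, at 0.498 and 0.453 in KPAW eyes against 0.446 and 0.445 in wild-type eyes.

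Hsp90b1, the ER member of the Hsp90 chaperones, had the smallest 1-month difference of the 9. It read 0.601 and 0.653 in KPAW eyes at 1 month, against 0.628 and 0.582 in wild-type eyes, a fold change of 0.05 (95% interval -0.24 to 0.34), and 0.11 without KPAW I. In the younger eyes it read 0.744 and 0.796 in KPAW eyes, against 0.720 and 0.745 in wild-type eyes, so the 5-day arrays all lay above the 1-month arrays. Its second probe set, at 0.524 and 0.499 in 1-month KPAW eyes against 0.520 and 0.539 in wild-type eyes, overlapped as well.

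Calr, the calcium-binding lectin chaperone calreticulin, read 2.45 and 2.13 in KPAW eyes at 1 month, against 2.01 and 2.07 in wild-type eyes. The 5-day signals were 2.22 and 2.06 in KPAW eyes, against 2.20 and 2.23 in wild-type eyes. Each group overlapped its neighbour in the order of means. The difference at 1 month was 0.16 (95% interval -0.13 to 0.45), 0.06 without KPAW I, and under quantile normalisation the 1-month groups overlapped. The second of its 3 probe sets read 1.55 and 1.45 in KPAW eyes at 1 month, against 1.37 and 1.62 in wild-type eyes, and the third overlapped by a small margin.

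Pdia4, a protein disulfide isomerase, had a close pair at 1 month, with 0.261 and 0.257 in KPAW eyes against 0.179 and 0.223 in wild-type eyes. Its 5-day KPAW arrays spanned 0.160 to 0.277 and enclosed both wild-type values, 0.255 and 0.220. The 1-month difference was 0.35 (SE 0.24, adjusted p = 0.703), and 0.33 without KPAW I.

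Dnajb9, an Hspa5 co-chaperone that hands clients on to degradation, was the member whose representative had KPAW above wild type, without overlap, at both ages. It read 0.576 and 0.492 in KPAW eyes at 1 month, against 0.471 and 0.430 in wild-type eyes. Its 5-day signals were 0.413 and 0.434 in KPAW eyes, against 0.382 and 0.346 in wild-type eyes. The fold changes were 0.23 (SE 0.14, adjusted p = 0.694) at 1 month and 0.21 (SE 0.14, adjusted p = 0.9995) at 5 days, and neither passed. Without KPAW I the 1-month value was 0.12.

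Sdf2l1, a component of an ER chaperone complex, differed more than 2-fold between the wild-type arrays at 1 month. It read 0.0934 and 0.0831 in KPAW eyes, against 0.0753 and 0.0340 in wild-type eyes. At 5 days it read 0.0775 and 0.0555 in KPAW eyes, against 0.0705 and 0.0573 in wild-type eyes. The fold change at 1 month was 0.58 (SE 0.28, 95% interval -0.06 to 1.23), without KPAW I it was 0.52, and without wild type II it was 0.18.

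Herpud1, a membrane protein of ER-associated degradation, has 2 probe sets that ranked the groups differently. The representative read 0.559 and 0.376 in KPAW eyes at 1 month, against 0.393 and 0.286 in wild-type eyes, and the groups overlapped. The 5-day signals of that probe set were 0.262 and 0.271 in KPAW eyes, against 0.270 and 0.368 in wild-type eyes. The dimmer probe set read 0.400 and 0.329 in KPAW eyes at 1 month, against 0.251 and 0.286 in wild-type eyes, with no overlap. The 1-month fold changes were 0.43 (SE 0.24) and 0.41 (SE 0.22), both at an adjusted p of 0.675. Without KPAW I they were 0.15 for the representative and 0.28 for the dimmer probe set.

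Kdelr3, a KDEL receptor that returns escaped chaperones to the ER, had the largest 1-month difference of the 9. It read 0.104 and 0.0905 in KPAW eyes at 1 month, against 0.0393 and 0.0382 in wild-type eyes. At 5 days the order was turned, with 0.125 and 0.0975 in KPAW eyes against 0.157 and 0.154 in wild-type eyes. At both ages the groups were apart, and only the 2 KPAW groups overlapped each other. The 1-month fold change was 0.98 (SE 0.17, 95% interval 0.59 to 1.37, adjusted p = 0.243), a 1.97-fold difference, and at 5 days it was -0.42 (SE 0.17, adjusted p = 0.9995). Without KPAW I the 1-month value was 0.90 (adjusted p = 0.770), and without KPAW II it was 1.06 and passed (adjusted p = 0.0391), in a fit that called 559 of all probe sets. The lone KPAW array was there taken to vary like the other groups.

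**Figure D3:**
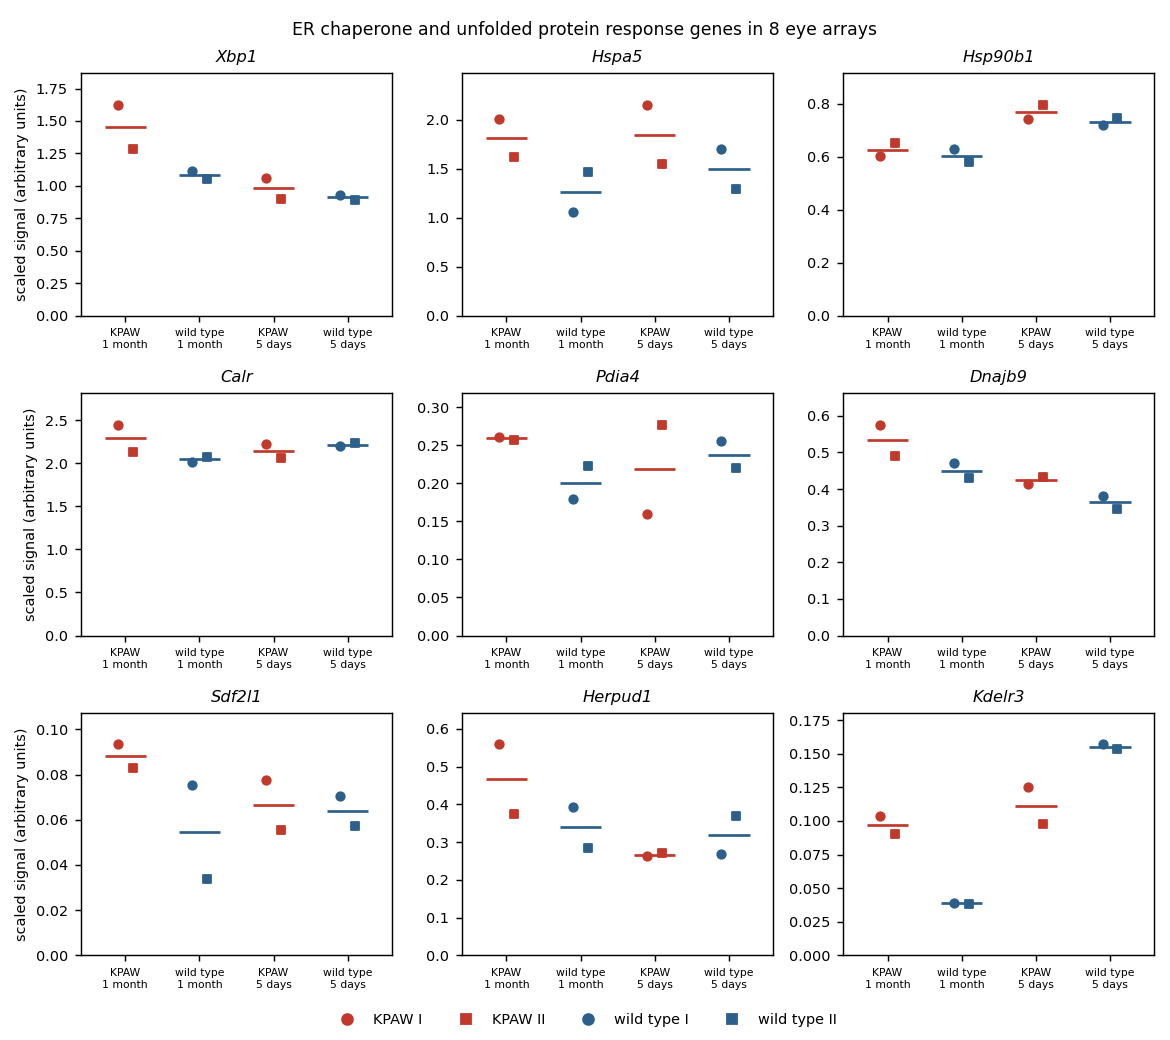
Scaled signal (y axis, arbitrary units, from 0) of the representative probe set of each of the 9 genes in each group (x axis); circles are array I, squares array II, bars the mean of the 2. KPAW lies above wild type at 1 month in 7 genes, and Kdelr3 is the gene whose groups are apart at both ages in opposite directions.

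At 5 days no member differed between KPAW and wild-type eyes in the test, and no probe set of any gene did. Of the 9 genes 5 were higher and 4 lower in KPAW, with a median of 0.04 against -0.0043 for all genes. Dnajb9 lay above wild type in both arrays, against 15% of all genes, and Kdelr3 below, against 18.6%. Outside the representatives, the dimmer Hspa5 probe set was apart upward, against 17% of all probe sets. The third Calr probe set was apart downward, against 16.5%. limma called 0 of 15838 probe sets, 0%, with 377 at an unadjusted p under 0.05 (2.38%). The 2 arrays of each group differed in surface epithelium at this age. The cornified list summed to 9.13 and 0.490 in KPAW eyes, against 5.37 and 0.718 in wild-type eyes.

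The difference between the KPAW effects at the 2 ages was positive in 8 of the 9 genes, with a median of 0.31 against -0.0062 for all genes, and no member passed. Kdelr3 had the largest, 1.40 (SE 0.24, 95% interval 0.86 to 1.95, adjusted p = 0.651). Herpud1 followed at 0.65 (SE 0.34), then Sdf2l1 at 0.55 (SE 0.40) and Pdia4 at 0.50 (SE 0.33), all 3 with intervals that include 0. The call rate over all probe sets was 0%, with 933 of them at an unadjusted p under 0.05 (5.89%). The positive signs of Hspa5 and Dnajb9 turned with some arrays left out, Hspa5 to -0.0070 without KPAW II at 5 days and Dnajb9 to -0.0863 without KPAW I at 1 month.

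**Figure D4:**
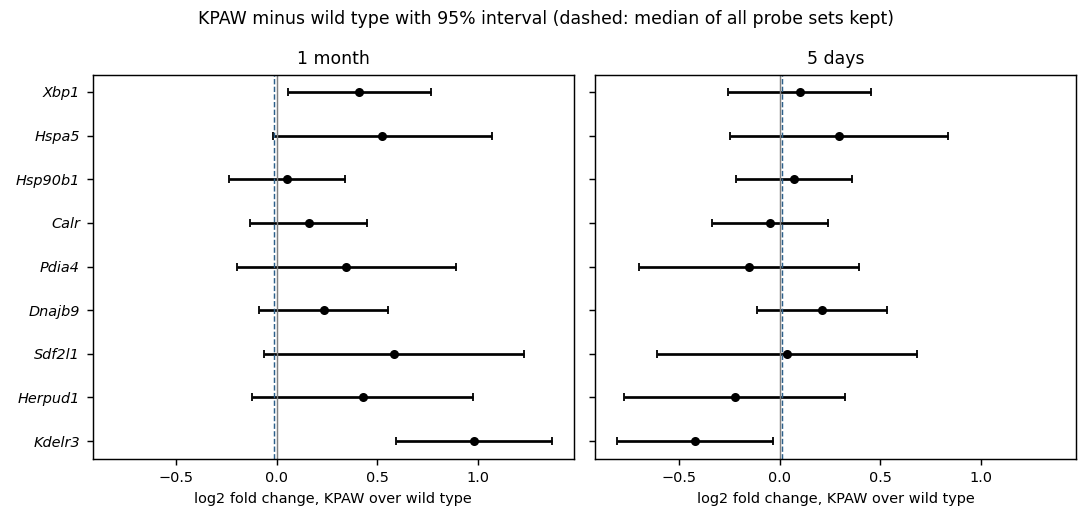
Log2 fold change of KPAW over wild type (x axis) for the representative probe set of each gene at 1 month and 5 days; points are estimates, bars 95% intervals and the dashed line the median of all probe sets kept. At 1 month the intervals of Xbp1 and Kdelr3 exclude 0, and at 5 days that of Kdelr3 does so on the other side.

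Between 5 days and 1 month Kdelr3 fell in wild-type eyes and the dimmer probe set of Herpud1 rose in KPAW eyes; no other member passed. Kdelr3 averaged 0.0387 ± 0.0008 in wild-type eyes at 1 month and 0.155 ± 0.002 at 5 days (SD, n = 2 each), which is a change of -1.56 on the log2 scale (SE 0.17, limma adjusted p = 0.00127). Calls to the lower side covered 9.3% of all probe sets, and calls to the higher side 8.78%. In KPAW eyes it averaged 0.0971 ± 0.0093 at 1 month and 0.111 ± 0.020 at 5 days (SD, n = 2 each), a fold change of -0.16 (SE 0.17, adjusted p = 0.564). The wild-type call was kept under every alternative tried and with any 1 array left out.

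The dimmer Herpud1 probe set averaged 0.364 ± 0.050 in KPAW eyes at 1 month and 0.164 ± 0.006 at 5 days (SD, n = 2 each), a fold change of 1.05 (SE 0.22, limma adjusted p = 0.0185), where 6.76% of all probe sets were called higher and 7.52% lower. The call was lost without KPAW I at 1 month (0.92, adjusted p = 0.0638) and without KPAW I or KPAW II at 5 days. In wild-type eyes the same probe set gave 0.73 (SE 0.22, adjusted p = 0.0540), just short of the threshold. The representative gave 0.74 (adjusted p = 0.0773) in KPAW and 0.08 (adjusted p = 0.835) in wild-type eyes.

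Xbp1 was close to the threshold in KPAW eyes, at 0.55 (SE 0.15, adjusted p = 0.0504), and gave 0.24 (SE 0.15, adjusted p = 0.310) in wild-type eyes. Dnajb9 gave similar values at 0.32 (SE 0.14) in KPAW and 0.29 (SE 0.14) in wild-type eyes, and Hsp90b1 at -0.29 (SE 0.12) in KPAW and -0.27 (SE 0.12) in wild-type eyes; the 1-month and 5-day arrays of both genes did not overlap in either kind of eye. Arrays separated upward with age for 4 genes in KPAW, against 26.9% of all genes, and for 2 in wild type, against 32.5%. They separated downward for 1 gene in KPAW, against 31.8%, and for 3 in wild type, against 34.2%. All 1-month arrays and KPAW I at 5 days had low Xist. In wild-type eyes Xist was high in both 5-day arrays and low in both 1-month arrays, so age and this division cannot be told apart there. At 5 days the KPAW arrays were divided while both wild-type arrays were high, which also touches the KPAW comparison at 5 days and the difference between ages. The part of this division in any of these differences was not tested.

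The rest of the pathway was read from 6 ER lists of 134 other genes, also chosen with earlier results of these data known. Of these genes 113 had a kept probe set. None was called for KPAW at either age. At 1 month 71 of the 113 were higher in KPAW on average, the median was 0.06, and 29.2% had both KPAW arrays above both wild-type arrays, against 18.1% of all genes. Without KPAW I the median was 0.04, and 44 of the 113 lay above both wild-type arrays, against 29.5% of all genes. That alternative for the lists was chosen after seeing the data. At 5 days 50 of 113 were higher, the median was -0.0055 and 17.7% were above, against 15%. With age in wild-type eyes 2 were called higher and 18 lower, which is 15.9% lower against 10.2% of all genes and 1.77% higher against 8.78%. In KPAW eyes 3 were called higher and 7 lower, 6.19% lower against 7.51% of all genes, and 2.65% higher against 7.7%.

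The entry machinery of the ER, the translocon, signal peptidase and oligosaccharyltransferase, held the most calls. In wild-type eyes 9 of its 22 genes fell with age, against 10.2% of all genes, and none rose, against 8.78%. Ssr4 and Ssr2, subunits of the translocon-associated complex, gave -0.87 (SE 0.22, adjusted p = 0.0300) and -0.82 (SE 0.15, adjusted p = 0.0116), and the channel subunit Sec61a1 gave -0.76. In KPAW eyes 3 of 22 fell, against 7.51% of all genes. They were Ssr2 (-0.57) and the signal peptidase subunits Spcs2 (-0.52) and Spcs1 (-0.49). At 1 month 19 of the 22 were higher in KPAW on average and in 11 the arrays were apart upward, against 18.1% of all genes, with a median of 0.13 and no call. Ssr4 at 0.61 (SE 0.22) and Ddost, of the oligosaccharyltransferase, at 0.34 (SE 0.14) had the largest statistics, both at an adjusted p of 0.675. Without KPAW I they stood at 0.27 and 0.23, and the list's median was 0.05. At 5 days Sec61a1 stood at -0.35 and Srprb, of the signal recognition particle receptor, at 0.21, neither called.

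Among the other ER chaperones and co-chaperones 4 of 19 fell with age in wild-type eyes, against 10.2% of all genes. None rose, against 8.78%. Serpinh1, the collagen-specific chaperone, read 0.261 and 0.344 in wild-type eyes at 1 month and 1.1 and 1.14 at 5 days, a fold change of -1.83 (SE 0.26, adjusted p = 0.00385). The prolyl isomerases Fkbp7 and Ppib gave -1.02 and -1.0, and Cnpy2 gave -0.53. In KPAW eyes 2 of the 19 fell, against 7.51% of all genes, Serpinh1 by 1.09 and Ppib by 0.55 on the log2 scale. For KPAW at 1 month Ppib stood at 0.43 and Fkbp7 at 0.52, both at an adjusted p of 0.675, and without KPAW I at 0.31 and 0.44. At that age 5 of the 19 were apart upward in KPAW, against 18.1% of all genes, and 3 downward, against 18.6%. At 5 days 15 of the 19 were lower in KPAW on average, with a median of -0.12. Of the 19 genes 10 were apart downward, against 18.6% of all genes, and 1 upward, against 15%. The largest statistics were those of Dnajb11, at -0.66 (SE 0.25), and Cnpy2, at -0.26, and none was called.

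In the vesicle coat and retrieval list 4 of 21 genes fell with age in wild-type eyes, against 10.2% of all genes. They were Sec13 (-0.92), Sec24d (-0.73), Kdelr2 (-0.65) and Copb2 (-0.46). In KPAW eyes 1 of the 21 fell, Copb2 (-0.54), against 7.51% of all genes. Kdelr2, a second KDEL receptor, read 0.457 and 0.462 in KPAW eyes at 1 month, against 0.402 and 0.360 in wild-type eyes, a fold change of 0.26 (SE 0.13). At 5 days it read 0.571 and 0.519 in KPAW eyes, against 0.640 and 0.577 in wild-type eyes, so its group means had the same order as those of Kdelr3. Without KPAW I the 1-month value of Kdelr2 was 0.27. Sec24d, a cargo adaptor of the COPII coat, stood at 0.60 (SE 0.17, adjusted p = 0.627) for KPAW at 1 month, and at 0.51 without KPAW I. Of the 21 genes 5 were apart upward in KPAW at 1 month, against 18.1% of all genes, and 2 downward, against 18.6%. At 5 days Arcn1 stood at 0.30 and Sec31a at -0.23, neither called.

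Of 14 disulfide isomerases and oxidases 1 fell with age in both kinds of eye, against 10.2% of all genes in wild-type and 7.51% in KPAW eyes. It was the peroxiredoxin Prdx4, which fell by 1.91 in wild-type and by 1.33 in KPAW eyes on the log2 scale. Agr2, the isomerase of mucous cells, which is also on the goblet list, rose with age in KPAW eyes by 3.40 (SE 0.58, adjusted p = 0.00910). It read 0.681 and 0.136 in KPAW eyes at 1 month, against 0.0344 and 0.0222 in wild-type eyes, a difference of 2.76 (SE 0.58, adjusted p = 0.402) that did not pass. Qsox1, a sulfhydryl oxidase, followed at 0.54 (SE 0.15, adjusted p = 0.606). In this list 7 of 14 genes were apart upward in KPAW at 1 month, against 18.1% of all genes, and 1 downward, against 18.6%. Without KPAW I the values were 1.68 for Agr2 and 0.45 for Qsox1. At 5 days Txndc5 stood at 0.58 and Tmx1 at -0.20 with overlapping arrays.

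Of 16 kept UPR sensors and transcription factors 2 rose with age in both kinds of eye, and no other gene of the list was called. They were the stress-induced factor Ddit3 and the glutathione-degrading enzyme Chac1. Of all genes 7.7% were called higher with age in KPAW and 8.78% in wild-type eyes. Ddit3 read 0.177 and 0.158 in KPAW eyes at 1 month and 0.0779 and 0.0531 at 5 days, a fold change of 1.14 (SE 0.21, adjusted p = 0.0123). In wild-type eyes it read 0.137 and 0.174 at 1 month and 0.0750 and 0.0555 at 5 days, a fold change of 1.03 (SE 0.21, adjusted p = 0.0145). Chac1 gave 1.31 in KPAW and 1.23 in wild-type eyes. At 1 month 8 of the 16 were higher in KPAW on average and 8 lower. Of these 3 were apart upward, against 18.1% of all genes, and 1 downward, against 18.6%. For KPAW at 1 month the phosphatase subunit Ppp1r15a stood at 0.59 and Creb3l2 at 0.36, and without KPAW I at 0.18 and 0.12. At 5 days Dnajc3 stood at 0.21 and Creb3l2 at -0.24, none called. No gene of ER-associated degradation, of 21 kept, was called in any comparison. With age, between 7.51% and 10.2% of all genes were called in each direction. At 1 month 2 of the 21 were apart upward in KPAW, against 18.1% of all genes, and 6 downward, against 18.6%. The largest statistics of that list for KPAW at 1 month were Ufd1 at -0.46 and Erlec1 at -0.30 (-0.33 for each without KPAW I). At 5 days they were Man1b1 at 0.30 and Herpud2 at 0.25.

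Chaperones outside the ER, 24 kept, served as a comparison list. The stress-inducible Hspa1a and Hspa1b, near-identical copies whose signals may not be separable, rose with age by 1.77 and 1.75 in KPAW and by 2.34 and 2.30 in wild-type eyes. Hspb1 rose by 1.20 in KPAW. The chaperonin subunit Cct2 fell in both, and Tcp1 and Ahsa1 fell in wild-type eyes. At 1 month 16 of the 24 were higher in KPAW on average with a median of 0.04. The arrays were apart upward in 8 of the 24, against 18.1% of all genes, and downward in 3, against 18.6%. Dnajb1 stood at 0.57 and Hspb1 at 0.45, and without KPAW I at 0.48 and 0.26. At 5 days Tcp1 stood at -0.26 and Hspa1a at 0.23. None was called for KPAW at either age.

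Across the 8 arrays the 9 genes did not follow 1 common profile. Pearson's r with the mean standardised profile ranged from -0.01 for Hsp90b1 to 0.83 for Calr. The genes most like that mean profile among 9483 others were Lgals9 (r = 0.97), Prkx, Tlcd1, Tmem176a and Serpinf1 (r = 0.94). Those most like Hspa5 were Srd5a3, Pdcd6 and Tnfrsf1b, at r between 0.91 and 0.92. Those most like Xbp1 were Glipr1, Upp1 and Abhd14b, at r between 0.98 and 0.99. All of these are the highest of many correlations over 8 arrays that fall into 4 groups and share their scaling, and they are descriptions.

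The genes most like Kdelr3 were Col1a2 (r = 0.97), Micos13 (r = 0.97) and Col3a1 (r = 0.97), of which Col1a2 and Col3a1 encode the fibrillar collagens of connective tissue. Col1a2 read 3.67 and 2.71 in KPAW eyes at 1 month, against 1.84 and 1.92 in wild-type eyes. The 5-day arrays read 4.53 and 4.01 in KPAW eyes, against 5.45 and 5.35 in wild-type eyes, which is the group order of Kdelr3. The fibroblast and keratocyte list, which holds both collagens, whose 1-month sums are given above, summed at 5 days to 15.7 and 14.0 in KPAW eyes, against 18.3 and 18.0 in wild-type eyes. In wild-type eyes 7 of its 9 genes fell with age, against 10.2% of all genes. The part of these cells in the Kdelr3 signal was not tested.

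**Figure D5:**
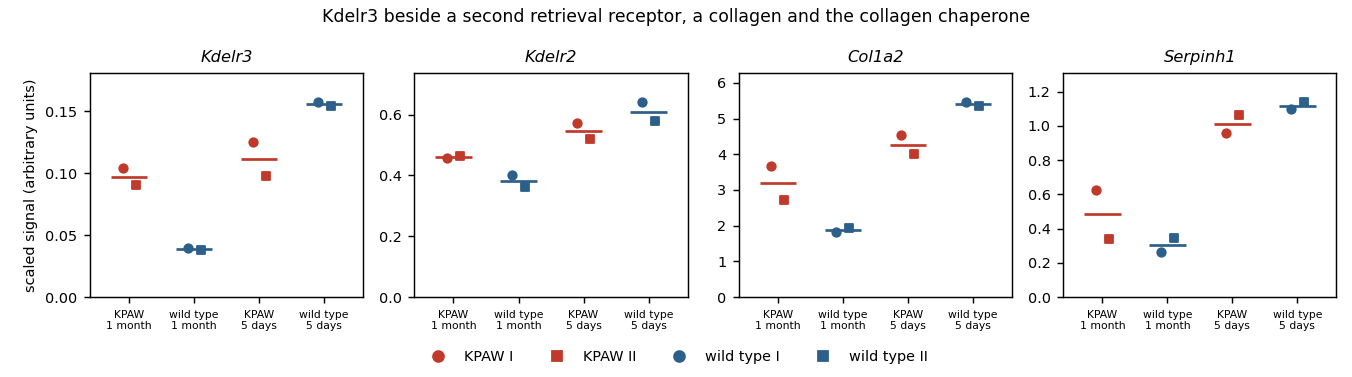
Scaled signal (y axes, arbitrary units, from 0) of Kdelr3, Kdelr2, Col1a2 and Serpinh1 by group (x axis); circles are array I, squares array II and bars the mean of the 2. In each panel the group means run, from high to low, wild type at 5 days, KPAW at 5 days, KPAW at 1 month and wild type at 1 month. The share of all genes with this order was not counted. For Serpinh1 the 1-month arrays overlapped, with 0.627 and 0.340 in KPAW eyes against 0.261 and 0.344 in wild-type eyes.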

How the data were processed

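Total RNA of mouse eyes was measured on 8 Affymetrix arrays, 2 in each of 4 groups, per the labels. The deposited intensity is 1 signal per probe set; the sources used here do not name the software that made it. In every array the control probe sets have a deposited median of 1, and the lowest listed value, 0.01, is held by 10.0% to 14.9% of probe sets. Arrays have no read depth, and their number limits the precision. From these values a factor per array brought its trimmed mean to the median over the arrays (2% off each end; 0.144 to 0.256 before scaling), a pseudocount of 0.0211 (20th percentile) was added and log2 taken. Probe sets above the 30th percentile of mean signal were kept, 15838 of 22626. limma 3.58.1 (R 4.3.3) fitted 4 group means with a variance trend and no block, and 5 contrasts were tested two-sided, with Benjamini-Hochberg adjustment over all probe sets kept. The fit was tested on simulated data. Genes were named from the platform annotation: 20380 probe sets had 1 symbol, 691 several and 1555 none. Named were every member, in each pathway list at most 3 called genes a direction for the age contrasts and the 2 largest statistics for the KPAW contrasts where none was called, and the genes of most similar profile; Copb2 and Cnpy2, the fourth of their lists in wild type, were added after their values were seen. Members and lists were chosen with earlier results of these data known. Alternatives covered scaling, pseudocount, filter, variance trend, array weights, block, groups fitted and each array left out. Promoters were searched in Python 3.11.15, and figures drawn with matplotlib 3.10.9.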

Additional observations from a re-analysis of the deposited data

Results flagged for a closer look

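Kdelr3 was picked out because the KPAW arrays lay above wild type at 1 month and below it at 5 days in every array. Its KPAW effect at 1 month minus that at 5 days was 1.40 on the log2 scale. It read 0.104 and 0.0905 in KPAW eyes at 1 month, against 0.0393 and 0.0382 in wild-type eyes, and 0.125 and 0.0975 in KPAW eyes at 5 days, against 0.157 and 0.154 in wild-type eyes. The test of the difference itself did not pass (limma adjusted p = 0.651), and over the alternatives that kept all arrays it ranged from 1.01 to 1.60. With 1 array left out it ranged from 1.25 to 1.56, and it passed without KPAW II at 1 month (1.48, adjusted p = 0.0432), in a fit that called 304 probe sets.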

How the results depend on the processing

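Of the member fold changes reported, 573 of their values under other settings kept direction and side of the threshold, 8 passed it where they had not, and 8 changed sign, all among values that were not called. The causes were not tested. Signs turned under quantile normalisation for Calr (0.0381 at 5 days, -0.0867 with age in KPAW), Sdf2l1 (-0.0073 at 5 days) and the dimmer Hspa5 probe set (0.0078 with age in KPAW). They turned under median scaling for Sdf2l1 (-0.000479 at 5 days), Hsp90b1 (0.0646 for the difference between ages) and Herpud1 (-0.0031 with age in wild type), and on values as deposited for Dnajb9 (-0.0150 for the difference between ages).

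All probe sets called for KPAW at 1 month numbered 4, and 99 as deposited, 2 with the pseudocount at the 5th or the filter at the 50th percentile, 1 with array weights and 19 with the contrast's groups alone. With the replicate block the count was 13; the numerals I and II are not said to mark a shared animal or day, and the correlation of their I minus II differences ran from -0.02 to 0.31. As deposited the difference between ages had 36 calls and age in KPAW 1343, against 2261, which the contrast's groups alone brought to 633. That scale moved the median of all probe sets by -0.25 at 1 month, 0.17 at 5 days, -0.42 for the difference and 0.44 for age in wild type.

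Member calls with age in KPAW numbered 2 under quantile normalisation, the 40th percentile pseudocount, the 50th percentile filter and the replicate block, Xbp1 being the addition. With age in wild type they numbered 3 as deposited (Xbp1 and Herpud1 added) and 2 with the 50th percentile filter or array weights (Herpud1). Genes separated upward at 1 month numbered 2 of 9 as deposited, against 3.21% of all genes. They numbered 7 with median scaling, against 22.1%, and 6 under quantile normalisation, against 18.8%.

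Leaving out 1 array, calls over all probe sets ranged from 0 to 559 for KPAW at 1 month (559 without KPAW II, 0 without any 1 wild-type array of either age), from 0 to 27 at 5 days, from 0 to 304 for the difference, from 736 to 2175 for age in KPAW and from 845 to 3688 in wild type. Member calls ranged from 0 to 1 for KPAW at 1 month and for the difference, from 0 to 4 for age in KPAW and from 1 to 2 in wild type, and separated genes from 7 to 9. With 1 of the 1-month arrays left out, 29.5% to 39.3% of all genes separated upward, against 18.1% with all arrays. Sign changes with 1 array left out numbered 27, counted over each fold change and each array left out, none of them called. The ranges for KPAW at 1 month were -0.0074 to 0.108 (Hsp90b1). At 5 days they were -0.0135 to 0.214 (Xbp1), -0.103 to 0.0043 (Calr), -0.513 to 0.209 (Pdia4), -0.147 to 0.219 (Sdf2l1) and -0.233 to 0.395 (dimmer Herpud1 probe set). For the difference between ages they were -0.0070 to 0.465 (Hspa5), -0.0765 to 0.0390 (Hsp90b1) and -0.0863 to 0.133 (Dnajb9). With age in KPAW they were -0.251 to 0.221 (Hspa5), -0.189 to 0.183 (its dimmer probe set), -0.0074 to 0.194 (Calr) and -0.0886 to 0.634 (Pdia4), and in wild type -0.623 to 0.187 (Sdf2l1) and -0.134 to 0.302 (Herpud1).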
